A study of Mus musculus with 6 samples.

Results

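Collagen becomes a stable, crosslinked fibre through enzymes that act on its prolines and lysines, and 10 genes for such enzymes were followed here in tumours of epithelioid hemangioendothelioma (EHE), a cancer of endothelial cells, and in liver. They were matched by symbol: the 5 lysyl oxidases Lox, Loxl1, Loxl2, Loxl3 and Loxl4, the 3 lysyl hydroxylases Plod1, Plod2 and Plod3, and the 2 prolyl 4-hydroxylase alpha subunits P4ha1 and P4ha2. All 10 were found among the 55401 genes of the count table, each under 1 identifier. The series held polyadenylated RNA of 6 C57BL6 mouse samples, 3 EHE tumours taken from the peritoneal surface and 3 livers. According to its title the tumours came from a genetically engineered mouse model, but the labels give neither the alleles, the promoter that drives them, the age, nor whether each sample is from an animal of its own. P-values therefore reflect the spread among these 6 samples alone, and that spread may be technical.

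Prolyl 4-hydroxylases act in the endoplasmic reticulum, where hydroxyproline makes the collagen triple helix stable at body temperature. Lysyl hydroxylases work in the same compartment and prepare lysines for sugar attachment and for strong crosslinks. Lysyl oxidases are copper enzymes, mostly secreted, that turn lysine and hydroxylysine side chains into aldehydes, from which crosslinks in collagen and elastin form. Lysyl oxidases are best known in liver for their rise in fibrosis.

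The labels were checked against cell type markers. All 6 endothelial markers were called higher in tumours, with sums of 3175, 1623 and 2548 CPM (a gene's counts relative to the TMM-adjusted size of its library) in tumours 1 to 3 against 114 to 153 in livers, and all 6 hepatocyte markers were called lower, at 1.56 to 3.81 CPM in tumours and 144577 to 210216 in livers. Of 4 markers of liver sinusoidal endothelium, 3 (Stab2, Clec4g and Oit3) were called lower in tumours and 1 (Lyve1) higher. Libraries held 33881392 to 40277346 counts. Liver 2 stood apart with counts for 33274 genes, against 19767 and 19001 in livers 1 and 3, and tumour 2 with the most skeletal muscle transcripts. For some genes whose fold change moved when a library was left out, the value without it is given.

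All 10 enzyme genes rose in tumours. The quasi-likelihood test of edgeR, run on 17387 genes with adjusted p below 0.05 as the threshold, called 58.2% of them, 29.5% as higher in tumours and 28.7% as lower, against 10 of 10 higher here. Every tumour lay above every liver for each of the 10, as for 35.1% of tested genes, while 33.1% lay wholly below. The smallest fitted change of the 10, that of Plod1, was reached or passed by 20.5% of tested genes. The background depends on scaling: with library totals alone 61.5% of genes were called higher and 12.5% lower, while TMM without the 100 most abundant genes turned the balance to 20.5% higher and 42% lower. On FPKM (the deposited values, scaled for transcript length and depth) limma called 63.1% higher and 65.7% had all tumours above all livers, with all 10 enzyme genes among them each time. The median log2 fold change of the 10 was 4.78, against 0.10 over all tested genes. Tumour state and tissue differ together in this comparison and cannot be told apart, and neither can more cells of a type and more RNA per cell.

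**Figure D1:**
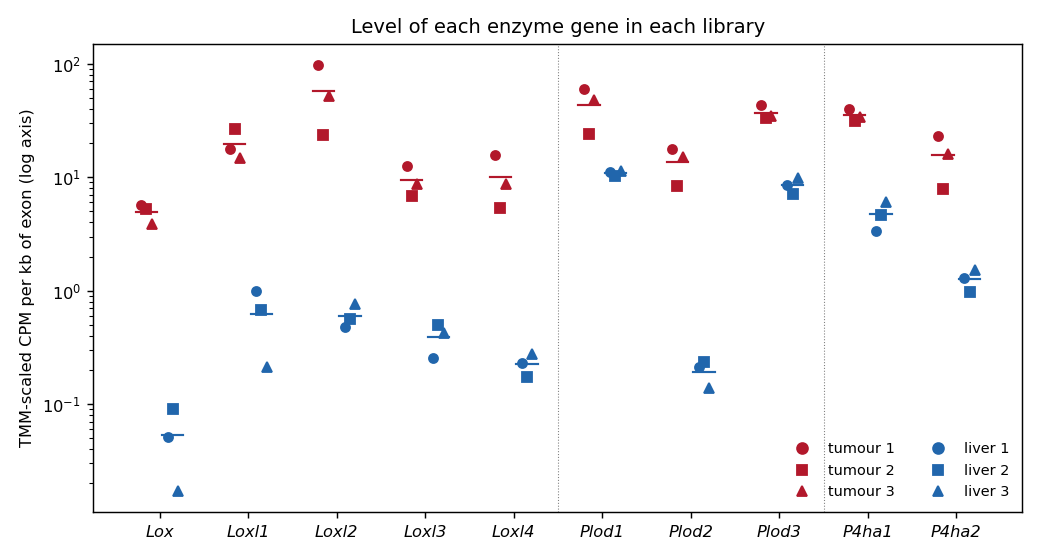
Level of the 10 enzyme genes in each library, as TMM-scaled CPM per kilobase of exon on a log axis (TMM adjusts libraries for their composition), with 1 point per library and a line at each group mean. All 3 tumours (red) lie above all 3 livers (blue) for each gene, and the gap is narrow for Plod1, Plod3, P4ha1 and P4ha2 and wide for Lox, Loxl2 and Plod2.

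Fold changes spanned a wide range within the group. They ran from 4.02-fold for Plod1 to 96.3-fold for Loxl2. Per kilobase of exon, the tumour levels were led by Loxl2 at 57.8 ± 37.0 CPM per kb, Plod1 at 43.7 ± 18.1, Plod3 at 37.1 ± 5.55 and P4ha1 at 35.3 ± 4.46 (SD, n = 3), whose ranges overlapped from each to the next. Below them came Loxl1, P4ha2, Plod2, Loxl4 and Loxl3, again with each range overlapping the next, and Lox was lowest at 4.94 ± 0.980. In liver the order was different at the top. Plod1 led at 10.9 ± 0.557 CPM per kb, then Plod3 at 8.55 ± 1.34, P4ha1 at 4.71 ± 1.35 and P4ha2 at 1.26 ± 0.280 (SD, n = 3), with no overlap from one to the next of these 4, while the other 6 genes stayed below 1 CPM per kb in every liver.

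The prolyl 4-hydroxylase alpha subunits carry the active site that hydroxylates proline. P4ha1 (ENSMUSG00000019916, chromosome 10, 59323296 to 59373304, GRCm38), the main alpha subunit of most cells, had 165, 129.7 and 140.5 CPM in tumours 1 to 3, against 14.0, 19.2 and 25.0 in livers 1 to 3. Its tumours were close together, within 1.28 times of each other, and the rise was 2.91 on the log2 scale (SE 0.26, edgeR adjusted p = 0.000113). P4ha2 (ENSMUSG00000018906, chromosome 11, 54100095 to 54131665), the second isoform, had 144, 48.9 and 99.4 CPM in tumours, against 8.11, 6.03 and 9.49 in livers, a rise of 3.63 (SE 0.43, edgeR adjusted p = 0.000416). Tumour 2 was low for this gene, 2.94 times below tumour 1, yet far above the livers.

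Both alpha subunits work only in a complex with P4hb, protein disulfide isomerase, which also folds other secreted proteins. P4hb went the other way. It had 550.1, 437 and 453 CPM in tumours, against 2712, 2188 and 2743 in livers and fell by 2.41 on the log2 scale (SE 0.29, edgeR adjusted p = 0.000465). It was lower in tumours under every scaling tried. Within each library, which removes any scaling, the log2 ratio of P4ha1 to P4hb counts was -1.73, -1.75 and -1.69 in tumours 1 to 3, against -7.60, -6.84 and -6.78 in livers 1 to 3. That of P4ha2 to P4hb was -2.43 ± 0.65 in tumours and -8.35 ± 0.17 in livers (SD, n = 3). Each liver held more P4hb counts per alpha subunit count than any tumour. Only 11.6% of tested genes had a lower log2 fold change than P4hb, so most genes rose relative to it. These ratios, like those below, were chosen after the values were seen and are given without a test.

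Bases before the start sites of P4ha1 and P4ha2 are shown. Prolyl and lysyl hydroxylase genes are known in mammals as targets of the hypoxia-inducible factors (HIF), which bind ACGTG or GCGTG. RefSeq windows (GRCm38.p6) of 250 bases ending at the start site were used for 5 of the 10 genes and searched for both motifs on both strands. The P4ha2 window lies inside the longer GENCODE model of that gene, which has an earlier start, in an intron. Plod1, with 1 match, is shown as well. Plod3 held more matches, as given below, and its bases are not shown. Whether matches bear on the rise of any gene was not tested. Capitals mark the matches, written CACGT or CACGC where they lie on the other strand.
P4ha1, chr10:59323046-59323295, plus strand: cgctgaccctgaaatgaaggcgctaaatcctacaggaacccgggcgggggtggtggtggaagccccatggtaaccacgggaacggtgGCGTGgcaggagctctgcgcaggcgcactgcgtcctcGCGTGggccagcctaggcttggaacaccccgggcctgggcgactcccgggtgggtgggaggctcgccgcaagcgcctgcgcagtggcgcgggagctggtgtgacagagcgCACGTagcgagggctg
P4ha2, chr11:54100674-54100923, plus strand: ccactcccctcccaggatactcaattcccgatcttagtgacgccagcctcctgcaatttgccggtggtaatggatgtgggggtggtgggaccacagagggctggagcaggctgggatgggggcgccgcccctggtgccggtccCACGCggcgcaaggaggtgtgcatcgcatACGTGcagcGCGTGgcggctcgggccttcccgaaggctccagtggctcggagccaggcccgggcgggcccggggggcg
Plod1, chr4:147936777-147937026, minus strand: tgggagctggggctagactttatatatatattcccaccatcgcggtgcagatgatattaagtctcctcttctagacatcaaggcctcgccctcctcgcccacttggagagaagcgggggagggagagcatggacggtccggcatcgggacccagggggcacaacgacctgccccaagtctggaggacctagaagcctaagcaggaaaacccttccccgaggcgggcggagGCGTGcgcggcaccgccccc

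P4ha1 and P4ha2 each held 1 ACGTG and 2 GCGTG, Plod3 held 1 and 3, and Plod1 and Loxl4 held 1 GCGTG each. At least 1 of these motifs lay in 38.6% of 32851 windows of the same length, ACGTG in 16.6% and GCGTG in 28.2%. How many of all windows hold several matches was not counted. The 5 windows were richer in G and C, at 55.6% to 76.0%, than the median window at 52.4%. Neither GGAATG, the core bound by TEAD factors, nor TGANTCA, bound by AP-1, occurred on either strand of the 5 searched windows. These motifs lay in 12.6% and 6.75% of all windows. No window was found for Loxl1, Loxl2, Loxl3 and Plod2, whereas Lox was left out of the search for every motif. A match is a description of the letters and not evidence of binding.

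The lysyl hydroxylases split into a large riser and a pair of moderate ones. Plod2 (ENSMUSG00000032374, chromosome 9, 92542223 to 92608428) encodes the enzyme that hydroxylates lysines of the collagen telopeptides, the step behind the stiff pyridinoline type of crosslink. It had 96.0, 44.8 and 81.1 CPM in tumours 1 to 3, against 1.14, 1.26 and 0.743 in livers 1 to 3, a rise of 6.14 on the log2 scale (SE 0.40, edgeR adjusted p = 3.35e-05), or 70.7-fold. Plod1 (ENSMUSG00000019055, chromosome 4, 147909753 to 147936767), which hydroxylates lysines of the triple helix, had 404, 163 and 321 CPM in tumours, against 74.9, 69.3 and 76.5 in livers. Its livers lay almost on top of each other, and its rise was 2.01 (SE 0.34, edgeR adjusted p = 0.00228). Plod3 (ENSMUSG00000004846, chromosome 5, 136987019 to 136996648), which also attaches sugars to hydroxylysine, had 196, 149 and 157 CPM in tumours, against 39.0, 32.4 and 44.5 in livers, a rise of 2.12 (SE 0.21, edgeR adjusted p = 0.000167).

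Plod2 held a larger share of its family in every tumour than in any liver. Its share of the summed lysyl hydroxylase FPKM was 12.6%, 11.5% and 13.9% in tumours, against 0.919%, 0.756% and 0.533% in livers, without overlap. Plod1 had 50.2% ± 6.54 in tumours and 62.9% ± 3.78 in livers, also without overlap, and Plod3 had 37.1% ± 7.68 and 36.3% ± 3.83, with overlap (SD, n = 3). With 3 libraries against 3, no test can give a two-sided exact permutation p below 0.10, which is the value for Plod2 and Plod1 (0.25 adjusted over the 10 shares tested). On counts, the log2 ratio of Plod2 to Plod1 was -2.07, -1.86 and -1.99 in tumours, against -6.04, -5.78 and -6.69 in livers, whereas that of Plod1 to Plod3 was 0.73 ± 0.53 and 0.94 ± 0.16 (SD, n = 3). Of overlapping genes on the opposite strand, Znhit1 at Plod3 had 1676 to 2604 counts in tumours and 1398 to 2089 in livers, against 8744 to 11984 and 748 to 1078 for Plod3, and the unnamed model Gm38391 at Plod2 had 78 to 333 and 0 to 13. How the counting treated strand is not given in the sources used, and reads in the shared stretches of these genes cannot be told apart.

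**Figure D2:**
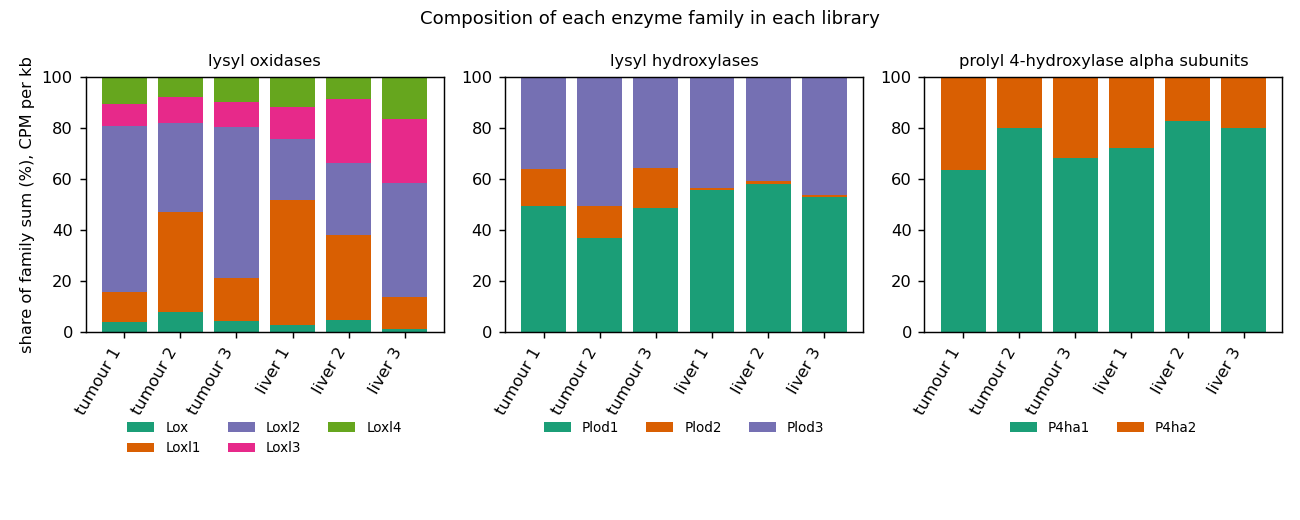
Share of each gene in the sum of its enzyme family, in percent of CPM per kilobase of exon, with 1 stacked bar per library. Plod2 fills 12.7% to 15.5% of the lysyl hydroxylase bar in tumours and 0.647% to 1.32% in livers, while the lysyl oxidase and prolyl 4-hydroxylase bars vary as much within groups as between them for most genes.

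All 5 lysyl oxidases were nearly silent in liver. No liver held more than 4.09 CPM of any of them. Loxl2 (ENSMUSG00000034205, chromosome 14, 69609068 to 69695834), which in mammals acts on collagen IV of basement membranes among other substrates, had the highest mean of the 5 in tumours per kilobase, though Loxl1 exceeded it in tumour 2 (26.8 against 23.8 CPM per kb). It had 525, 128 and 284 CPM in tumours 1 to 3, against 2.60, 3.03 and 4.09 in livers 1 to 3. It also varied most, 4.09 times between tumours 1 and 2, and the rise of 6.59 on the log2 scale (SE 0.62, edgeR adjusted p = 0.000145) was 6.0 without tumour 1. Lox (ENSMUSG00000024529, chromosome 18, 52516067 to 52529867), the founding member that crosslinks collagen and elastin, had 27.3, 25.2 and 18.3 CPM in tumours, against 0.243, 0.433 and 0.0825 in livers. The rise was 6.54 (SE 0.50, edgeR adjusted p = 6.42e-05), and 7.17 without liver 2, the livers having 6, 10 and 2 counts.

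Loxl1 (ENSMUSG00000032334, chromosome 9, 58287738 to 58313186), needed in mice for elastic fibre renewal, had 58.0, 88.4 and 49.0 CPM in tumours, against 3.24, 2.21 and 0.702 in livers, a rise of 4.99 (SE 0.56, edgeR adjusted p = 0.000332). It was the only 1 of the 10 with its highest value in tumour 2. Loxl4 (ENSMUSG00000025185, chromosome 19, 42593982 to 42612813) and Loxl3 (ENSMUSG00000000693, chromosome 6, 83034173 to 83052562) are relatives of Loxl2 that share its scavenger receptor domains. Loxl4 had 66.4, 22.7 and 36.9 CPM in tumours, against 0.973, 0.737 and 1.16 in livers, a rise of 5.45 (SE 0.48, edgeR adjusted p = 0.000113). Loxl3 had 57.6, 31.8 and 40.1 CPM in tumours, against 1.18, 2.30 and 1.94 in livers, a rise of 4.58 (SE 0.36, edgeR adjusted p = 6.82e-05). Its exons overlap those of Htra2 on the opposite strand, a mitochondrial protease gene with 933 to 1732 counts in tumours and 219 to 369 in livers, against 1858 to 3520 and 29 to 53 for Loxl3. Reads in the stretches they share cannot be told apart here either, so liver counts of Loxl3 may include reads of Htra2.

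The composition of the lysyl oxidase family was less clear than its level. The summed FPKM was 257, 104 and 164 in tumours 1 to 3, against 0.723, 0.878 and 0.308 in livers 1 to 3, the highest liver lying far below the lowest tumour (exact permutation p = 0.10, adjusted p = 0.10, two-sided, the smallest possible). FPKM lists Loxl3 at 0 in all 3 livers despite its counts, and Loxl2 at 0 in livers 1 and 3, where it had 64 and 99 counts, so FPKM shares in liver cannot be read for this family, and its liver sums are too low. In CPM per kb the sums were 149, 68.1 and 88.6 in tumours, against 2.00, 2.00 and 1.68 in livers, a log2 difference of 5.68 in place of 8.14 on FPKM. The units also differ in scaling, as only CPM per kb uses TMM. The families without such zeros also had smaller differences in CPM per kb, as given below. From CPM per kb, Loxl2 made up 65.3%, 34.9% and 59.2% of the sum in tumours, against 24.0%, 28.1% and 45.0% in livers, with overlap between groups (exact permutation p = 0.20, adjusted p = 0.429, n = 3 in each group). Loxl1 made up 11.8% to 39.4% in tumours, against 12.7% to 49.2% in livers. Loxl3 had the smaller share in tumours, 9.45% ± 0.909 against 20.9% ± 7.08 (SD, n = 3), without overlap (exact permutation p = 0.10, adjusted p = 0.333). Its liver share rests on 29 to 53 counts, which may include reads of Htra2. The summed lysyl hydroxylase FPKM lay between 145 and 305 in tumours and between 17.2 and 22.4 in livers, a log2 difference of 3.46 that was 2.23 in CPM per kb. That of the prolyl 4-hydroxylase subunits lay between 89.1 and 170.1 in tumours and between 4.92 and 7.42 in livers, a log2 difference of 4.46 that was 3.09 in CPM per kb. Each had an exact permutation p of 0.10 in either unit.

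**Figure D3:**
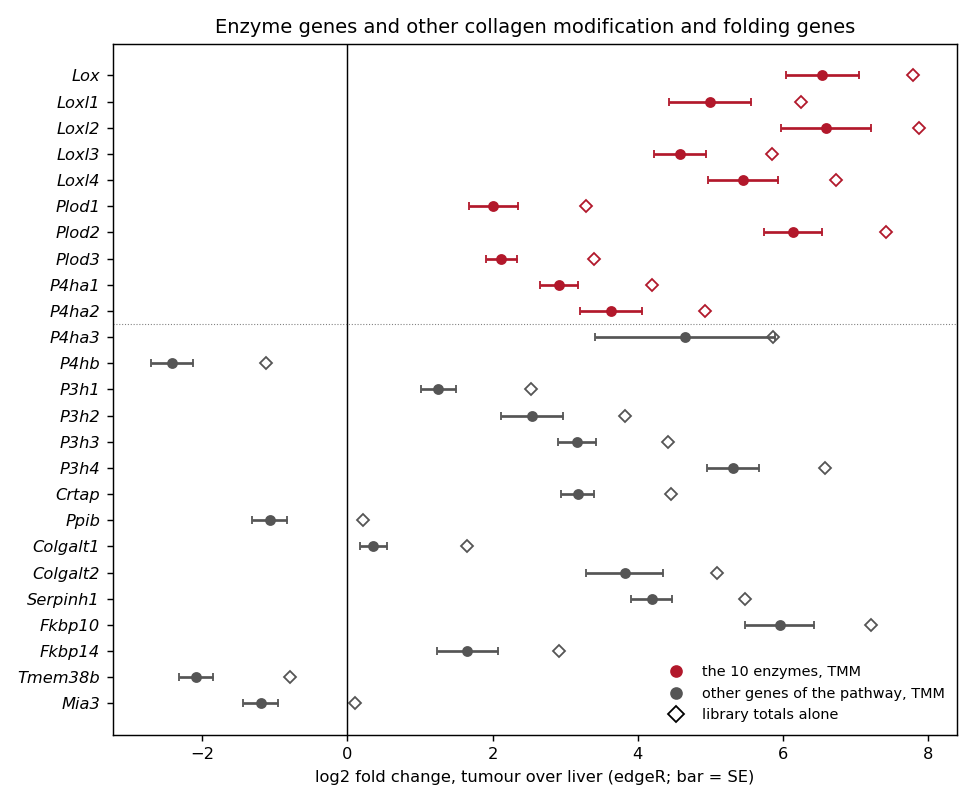
Log2 fold change of tumour over liver for the 10 enzyme genes (red) and 15 other genes of collagen modification and folding (grey), from edgeR with TMM scaling (filled points, bars are SE) and with library totals alone (open diamonds). All 10 enzyme genes lie to the right of 0 under both scalings, as do most others, while P4hb and Tmem38b lie to the left under both and Ppib and Mia3 change side.

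Most other genes of collagen modification and folding rose as well. Of 15 other genes, 10 rose, 4 fell and 1, Colgalt1, did not pass, with a median log2 fold change of 2.54. Over all tested genes, 29.5% were called higher and 28.7% lower. Fkbp10, a chaperone that assists Plod2 in the endoplasmic reticulum, had 159, 62.7 and 103 CPM in tumours, against 2.23, 1.99 and 1.03 in livers, a rise of 5.95 (SE 0.48, edgeR adjusted p = 7.92e-05). P3h4, part of a lysyl hydroxylation complex, rose by 5.31 (SE 0.36). The 4 that fell were P4hb, Ppib, Tmem38b and Mia3, and with library totals alone Ppib and Mia3 did not pass and turned to 0.22 and 0.10, which left 11 higher and 2 lower. Among 8 tested genes of propeptide removal, 4 rose, 1 fell and 3 did not pass (5 higher and 0 lower with library totals alone, 2 and 1 by TMM without the 100 most abundant genes), with a median of 1.08. Under those 2 other scalings, 61.5% and 20.5% of all tested genes were called higher, and the counts called higher in this list were near those shares. Tll1, a procollagen C-proteinase, rose by 5.74 (SE 0.90, and 7.33 without liver 2), Adamts2, the main procollagen N-proteinase, rose by 1.91 (SE 0.24), and the proprotein convertase Furin fell by 1.06 (SE 0.25), a direction that turned to 0.22 with library totals alone and to 0.12 on FPKM.

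Most substrates rose too. Of 10 collagen and elastin genes tested, 8 rose, none fell and 2 did not pass, with a median of 4.89. Over all tested genes, for this list and the next, 29.5% were called higher. Col4a2 and Col4a1, the main collagen chains of basement membrane, rose by 6.09 (SE 0.86) and 5.80 (SE 0.82), and by 5.0 and 4.70 without tumour 1, in which Col4a1 stood at 3046 CPM against 486 and 870.2 in tumours 2 and 3. Of 9 genes for fibre assembly and other crosslinks, 7 rose and 2 did not pass, with a median of 1.87. Fbln5, which brings lysyl oxidases to elastic fibres, rose by 4.48 (SE 0.30), and Pxdn, the peroxidase that makes sulfilimine crosslinks in collagen IV, by 3.34 (SE 0.36).

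Ratios to a substrate differed among the enzymes and with the substrate chosen. Col1a1, the main fibrillar collagen chain, had 705, 467 and 320.0 CPM in tumours, against 10.1, 14.0 and 7.47 in livers, a rise of 5.56 on the log2 scale (SE 0.44, edgeR adjusted p = 7.11e-05). That rise exceeded the log2 fold change of 96.5% of tested genes, and the rise of Col4a1 exceeded that of 96.9%. A lower ratio to either in tumours is therefore usual among tested genes and not particular to these enzymes. The log2 count ratio of Plod1 to Col1a1 was -0.80, -1.52 and 0.01 in tumours, against 2.89, 2.31 and 3.36 in livers, and Plod3, P4ha1 and P4ha2 were likewise lower against Col1a1 in every tumour than in any liver. Plod2 was level with it, at -2.75 ± 0.71 in tumours and -3.32 ± 0.16 in livers (SD, n = 3), with overlap. The ratios of Loxl1, Loxl2, Loxl3 and Loxl4 to Col1a1 also overlapped between groups, with differences in means from -0.94 to 0.86. Lox was higher against Col1a1 in tumours, at -4.69, -4.21 and -4.13 against -5.38, -5.01 and -6.50. Against Col4a1, the basement membrane chain, Plod1, Plod3, P4ha1 and P4ha2 were again lower in every tumour than in any liver, but Lox overlapped between groups (difference in means 1.40). Relative to Col4a1, Loxl2 was higher in every tumour (-2.54, -1.92 and -1.62 against -2.78, -3.50 and -2.71) and Loxl3 was lower (-5.72, -3.94 and -4.44 against -3.93, -3.91 and -3.78). For Loxl3 the overlap with Htra2 given above applies here as well.

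**Figure D4:**
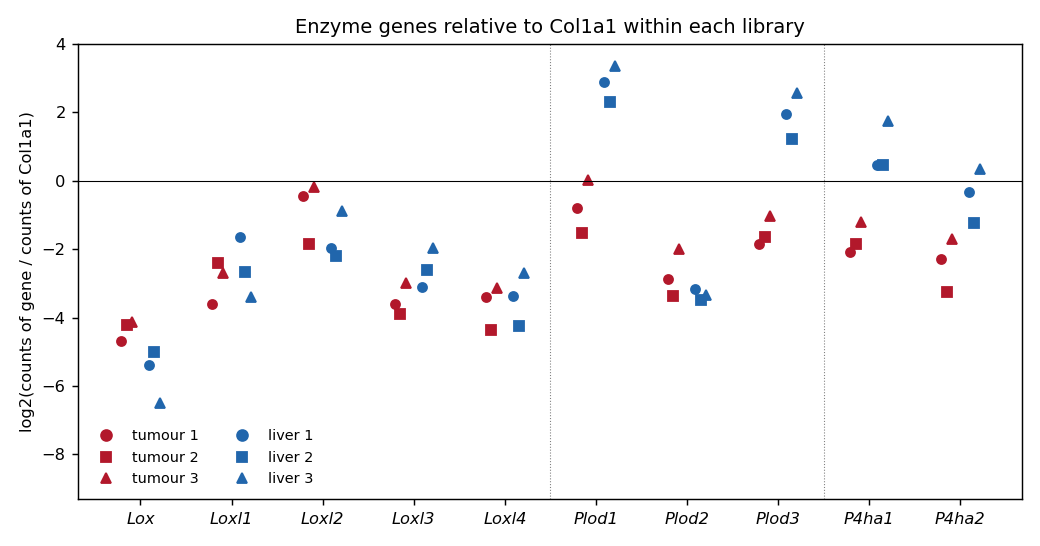
Log2 ratio of each enzyme gene's counts to Col1a1 counts within each library, with 1 point per library, a quantity that does not depend on library scaling. Plod1, Plod3, P4ha1 and P4ha2 lie lower in tumours (red) than in livers (blue), Lox lies higher, and Plod2 and the other lysyl oxidases overlap between groups. Col1a1 itself had a larger log2 fold change than 96.5% of tested genes.

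Genes that supply the enzymes' cofactors were mostly lower. Lysyl oxidases need copper, and both hydroxylase families need ascorbate. Of 6 such genes, 4 fell, 1 rose and 1 did not pass (3 lower and 2 higher with library totals alone), with a median of -2.26. Over all tested genes, 28.7% were called lower and 29.5% higher (12.5% and 61.5% with library totals alone). Gulo, which makes the last step of ascorbate synthesis in mouse liver, had 0.115, 0 and 0.128 CPM in tumours, against 496, 601 and 715 in livers and fell by 12.80 (SE 0.82, edgeR adjusted p = 3.21e-05). Slc23a1, an ascorbate transporter of liver, fell by 9.98 (SE 0.42). Atp7a, the copper pump that loads lysyl oxidases in the secretory pathway, had 33.0, 20.9 and 25.1 CPM in tumours, against 2.80, 5.03 and 4.17 in livers, a rise of 2.72 (SE 0.30, edgeR adjusted p = 0.000297).

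Hypoxia response genes were mixed. Of 12, 6 rose, 1 fell and 5 did not pass, with a median of 0.97. Hif1a and Epas1 were among those that did not pass, but were called higher with library totals alone (1.55 and 1.25). In the list, 10 rose and none fell with library totals alone, against 6 and 3 by TMM without the 100 most abundant genes. Over all tested genes, 29.5% were called higher and 28.7% lower. These shares were 61.5% and 12.5% with library totals alone, and 20.5% and 42% by TMM without the 100 most abundant genes. Adm, the vasodilator adrenomedullin, had 349.7, 180.3 and 534 CPM in tumours, against 2.43, 2.43 and 2.85 in livers, a rise of 7.11 (SE 0.50, edgeR adjusted p = 4.39e-05). Car9, a carbonic anhydrase, had 29.6, 3.35 and 10.6 CPM in tumours, against 0.689, 0.737 and 0 in livers, a rise of 4.93 (SE 1.19, edgeR adjusted p = 0.0104, alternatives from 1.03e-05 to 0.0983) that did not pass with limma-voom (adjusted p = 0.0961) or without a low-count filter (adjusted p = 0.0983). The rise was 3.88 without tumour 1 and 5.86 without the libraries 2 of both groups. Bnip3, a mitophagy receptor, fell by 1.53 (SE 0.26). It did not pass on FPKM or under scaling by library totals (adjusted p = 0.411).

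The tumours did not carry the enzymes equally. In 8 of 10 genes the order was tumour 1, then 3, then 2, and the exceptions were Lox and Loxl1. Tumour 1 exceeded tumour 2 by 4.09 times for Loxl2, 2.94 for P4ha2, 2.92 for Loxl4, 2.48 for Plod1 and 2.14 for Plod2, but by only 1.31 for Plod3 and 1.28 for P4ha1. Endothelial marker sums, given above, had the same order as these 8 genes, but of the 6 markers only Pecam1, Cdh5 and Tie1 did. Kdr was nearly level at 142, 149.8 and 152 CPM in tumours 1 to 3, Tek was 227, 158 and 244 CPM, and Emcn was highest in tumour 2. Fibroblast marker sums were 1714, 1079 and 1613 CPM in tumours 1 to 3 against 323 to 398 in livers, with 5 of 6 markers higher. Their order was that of Thy1 alone, at 1183, 358 and 1144 CPM, whereas Pdgfra, Dcn, Dpt and Pi16 were highest in tumour 2, with Dcn at 399, 559 and 401 CPM. Skeletal muscle marker sums ran opposite, at 1399, 10570.5 and 2453 CPM in tumours against 0 to 0.433 in livers, with Myh1 at 0 counts in all livers and 6 of 6 markers higher. Like Loxl1, the mesothelial sum, at 63.4, 189 and 57.6 CPM in tumours and 3.18 to 26.8 in livers with 3 of 4 markers higher (4 with library totals alone), and the macrophage sum, at 333, 910.4 and 216 in tumours and 151 to 291 in livers with 1 of 4 higher (4 with library totals alone), were largest in tumour 2. Smooth muscle sums were 61.9, 30.0 and 32.3 CPM in tumours and 2.43 to 4.90 in livers, with 2 of 4 markers higher (3 with library totals alone), and Acta2 made up most of them. Counts and FPKM disagreed for Tagln, which had 0.344, 0.479 and 0.465 CPM in tumours and did not pass. Its FPKM was 35.4, 36.5 and 38.4 in tumours and 0 in each liver, so the count sums may miss it. Beside these marker counts, 29.5% of all tested genes were called higher, and 61.5% with library totals alone. The part of these cell types in the enzyme values was not tested.

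**Figure D5:**
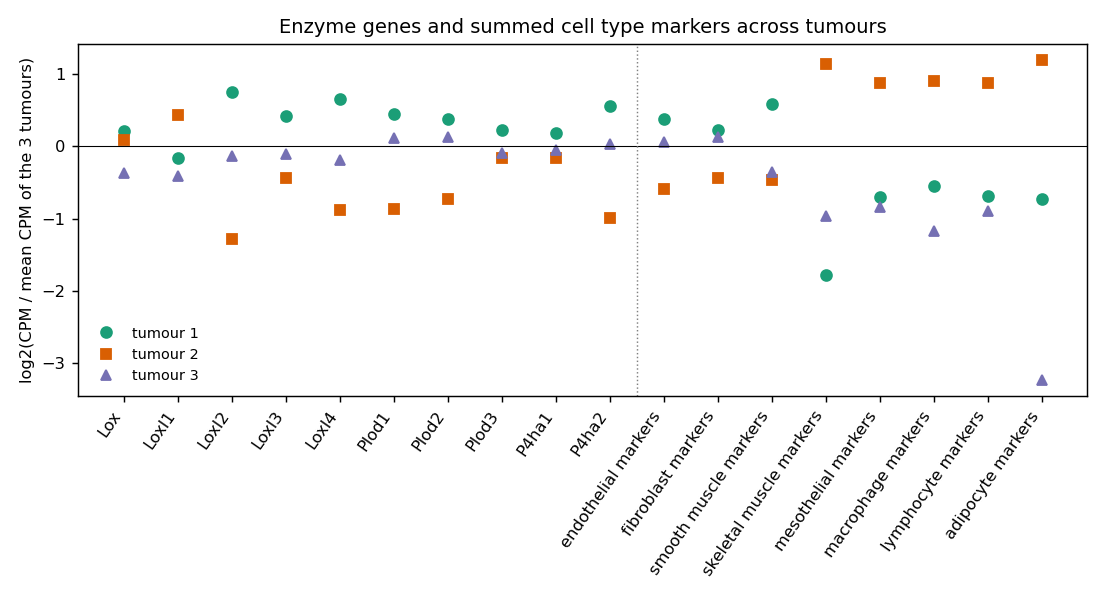
Values in each tumour relative to the mean of the 3 tumours, on a log2 scale, for the 10 enzyme genes (left of the dotted line) and the summed CPM of cell type markers (right). Tumour 2 (orange squares) is lowest for 8 enzyme genes and for endothelial, fibroblast and smooth muscle sums (the fibroblast sum follows Thy1, and single markers of these lists differ in order), and highest for Loxl1 and for skeletal muscle, mesothelial, macrophage, lymphocyte and adipocyte sums.

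The endothelial junction gene Pecam1 served as a further reference. Its log2 fold change exceeded that of 96.0% of tested genes, so a lower ratio to it in tumours is usual among them. The log2 count ratio of Plod2 to Pecam1 was -3.65, -3.69 and -3.55 in tumours 1 to 3, against -4.09, -4.20 and -5.08 in the livers. That near constancy across tumours depended on the marker: the ratio of Plod2 to Tie1 was -2.67, -2.57 and -2.81 in tumours 1 to 3, but that to Kdr was -0.56, -1.74 and -0.90 and that to Emcn 3.55, 0.96 and 3.23. The ratio of Loxl1 to Pecam1 was -4.38, -2.71 and -4.27 in tumours, with tumour 2 apart, and -2.57, -3.38 and -5.16 in livers. For Loxl2 it was -1.20, -2.17 and -1.74 in tumours, against -2.89, -2.93 and -2.62 in livers. For Plod1 it was -1.66 ± 0.15 in tumours and 1.72 ± 0.21 in livers (SD, n = 3). Among hepatic stellate markers, the collagen-making cells of liver, Lrat, Reln, Hand2 and Ngfr were called lower in tumours and Des, also a muscle gene, higher. With library totals alone Hand2 and Ngfr did not pass.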

How the data were processed

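RNA of 3 mouse EHE tumours and 3 livers was sequenced, and samples were grouped by their titles. Per the submitters' processing notes, HISAT2 2.1.0 and Cufflinks 2.2.1.3 were used with the mm10 build. The authors deposited whole-number counts per Ensembl gene in 1 table and FPKM in 1 file per library. How counting was done (tool, annotation, strand, reads that match several paralogs) is not given in the sources used here. Of low counts (1 to 10), 55.0% to 70.7% were even. An FPKM of 0 despite at least 100 counts occurred for 289 to 470 genes a library. Where an FPKM identifier was repeated (53 cases), its row of highest mean was used.

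Counts were fitted over the whole table with edgeR 4.0.16 in R 4.3.3: filterByExpr kept 17387 genes, all 10 enzyme genes among them, libraries were scaled by TMM (factors 0.612 to 1.624), and the robust quasi-likelihood test set tumours against livers with no covariate. Benjamini-Hochberg adjustment ran over all tested genes, with calls at an adjusted p under 0.05. Each SE was derived from the fold change and its F statistic (change over root F). CPM per kb divides TMM-scaled CPM by the union exon length of GENCODE M21 on GRCm38, the assembly of mm10. Family sums and shares were compared by two-sided exact permutation tests (scipy 1.17.1). Members and lists were chosen with earlier results of these data known. Named genes are the 10 members and, in each pathway list, among those called, at 1 CPM or above in a group and with groups that do not overlap, the 2 largest changes in the majority direction and the largest in the other. Others named, such as Col1a1, Pecam1 and the 4 genes that fell, were chosen after seeing values. Replicate libraries differed well beyond counting noise (chi-square over its degrees of freedom at least 95.8). That does not show whether they come from separate animals, but each was counted as 1 sample. The fitting functions were run on simulated counts. Those counts lacked the difference in composition between these groups, so they do not test the scaling. Alternatives are those of the closing section, with DESeq2 1.42.0 and limma 3.58.1.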

Additional observations from a re-analysis of the deposited data

How the results depend on the processing

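All 10 enzyme genes were called higher and none lower under each of the 19 alternatives: RLE factors, library totals, TMM without the 100 most abundant genes, 2 other low-count filters, limma-voom, DESeq2, edgeR against a threshold of 2-fold, a replicate block, 6 single libraries left out, both libraries 2 left out, and limma on log2(FPKM + 1), on log2(FPKM + 0.1) and unfiltered. Plod1 came closest to losing its call (highest adjusted p = 0.0142). The fitted sizes moved more: Lox ranged from 2.92 to 7.79, the lowest on log2(FPKM + 1), where a pseudocount of 1 exceeds its liver values.

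Over all genes, 5137 were called higher and 4982 lower. Library totals alone gave 10688 and 2172, the test against a 2-fold change 3314 and 2916, limma on log2(FPKM + 1) 8613 and 2031, on log2(FPKM + 0.1) 8608 and 2019, and unfiltered 9370 and 2152. TMM without the 100 most abundant genes went the other way, with 3565 genes (20.5%) higher and 42% lower, and moved the median of all genes by -0.62, to -0.51, and that of the 10 to 4.17. Library totals moved the median of all genes by 1.28, to 1.38, and that of the 10 to 6.05. The propeptide processing genes called higher numbered 2 both by TMM without the 100 most abundant genes and in the 2-fold test, against 4. Furin turned to 0.22 with library totals and to 0.12 in each of the 3 limma fits on FPKM (0.12, 0.12 and 0.12); the cause was not tested.

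In share of family FPKM (tumour minus liver, percentage points), Lox turned from -0.128 to 2.59 on CPM per kb, Loxl3 from 11.9 to -11.5, where FPKM lists it at 0 in livers, and Plod3 from 0.767 to -2.68. Leaving out single libraries gave -1.33 to 0.545 for Lox and -3.48 to 3.98 for Plod3. No share could pass the threshold with 3 libraries in each group.

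With the replicate number as a block, 4516 genes were called higher and 4574 lower. Same-numbered libraries did not deviate together (r = 0.019, 0.037 and -0.025 across 17387 genes). Such correlations between different tissues cannot tell whether same-numbered samples share an animal, so pairing remains unknown. Liver levels of Lox rest on 2 to 10 counts a library, which limits the size of its rise.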
